A study of Trichechus manatus latirostris with 11 samples.

Results

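The genes described here are those of the inflammatory cytokines IL6, IL1A, IL1B, TNF, CXCL8, IL10, IL12B, IL23A, OSM and LIF. A record of the comparison table was taken for a gene when the RefSeq gene table of the manatee assembly TriManLat1.0 gave its transcript that symbol. Of the 10 genes, 8 had a record, out of 15298 rows in all. No record was matched to IL12B or LIF. These genes were chosen by their differences between the group means of these same libraries, so their values are a description and no test was made on them. The RefSeq table names no scaffold for the genes, and so no positions are given.

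The libraries were made from buffy coat, the white cell layer of centrifuged blood, of adult Florida manatees. The Red tide group comprised 4 animals brought to Lowry Park Zoo for red tide illness, of which, by the study's methods, 2 were sampled on arrival and 2 after a week of treatment. The Control group comprised 4 animals from Crystal River, 2 from the Indian River Lagoon and 1 that was at Lowry Park Zoo recovering from pneumonia. All RNA was depleted of ribosomal and globin transcripts. The deposited table gives, for each row, the mean normalized count (reads divided by the size factor of their library, a measure of its relative depth) over 4 libraries and over 7 libraries, without naming the groups. By their sizes and by the order in which the title of the table names the groups, these were taken as the Red tide and the Control group. The sources on the study do not settle for these genes which condition has the higher values: the assignment made here and the study's own text give opposite directions. Values are therefore given as the 4-library mean and the 7-library mean, and every direction is between these means. Place, season, illness and treatment differed between the groups and also among the Control animals, 1 of which came from the site of the Red tide animals. Since libraries are not linked to animals, their parts in any difference cannot be told apart. The study's methods describe buffy coats of the Red tide animals frozen directly, and elsewhere RNAlater for each animal, so storage may also have differed.

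Inflammatory cytokines are small secreted proteins by which white blood cells call other cells to a site of injury or infection. Their genes are silent or weakly transcribed in resting blood leukocytes. They are switched on within a short time by NF-kB and AP-1 transcription factors after signals from pathogen or damage receptors. Their messenger RNAs carry AU-rich elements and are short lived. In bulk blood RNA, a larger number of cells that express a gene and more RNA per cell cannot be told apart.

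All 8 cytokine genes had the higher mean in the 4-library group. The difference was smallest for TNF, at 2.59-fold, and largest for IL6, at 635-fold. All 8 were at least 2-fold higher in the 4-library mean, a threshold that 23.9% of all rows passed. At least a 4-fold excess was found in 7 of the 8, and in 1839 of the 15298 rows. None was at least 2-fold lower, against 10.4% of all rows. Weakly expressed rows passed these thresholds more often, and the overall means of the 8 genes were all at least 10. Among the 10225 rows with such a mean, 12.3% were at least 2-fold higher, 3.81% at least 4-fold higher and 9.59% at least 2-fold lower. IL6, IL10 and IL23A, with 7-library means of 0.941, 2.42 and 2.25, reached such a mean only through the 4-library group. For these genes the shares at that mean are therefore no matched background. The log2 ratio, taken throughout as 4-library mean over 7-library mean, had a median of 4.06 for the 8 genes and of 0.14 for all rows. Relative to this median of all rows, the log2 ratios of the cytokine genes ran from 1.23 for TNF to 9.17 for IL6. Since the contrast itself chose the genes, these counts describe them and carry no further weight.

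**Figure D1:**
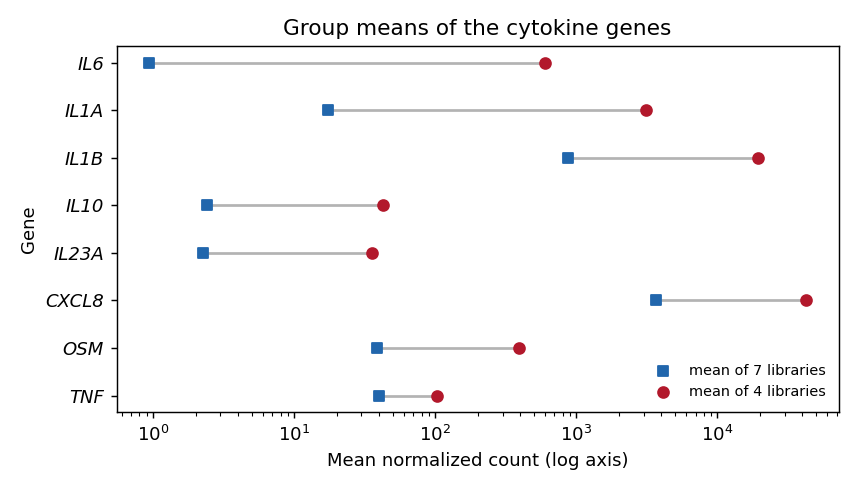
Mean normalized counts (log axis) of the 8 cytokine genes over 4 libraries (circles) and over 7 libraries (squares), joined by a line and ordered by their ratio. In all 8 genes the 4-library mean was the higher one, from 2.59-fold in TNF to 635-fold in IL6; the deposited means carry no error.

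IL6 encodes interleukin 6, which drives fever, the acute phase response of the liver and B cell maturation. Its record (XM_004377510.1) averaged 597 normalized counts in the 4 libraries against 0.941 in the 7. Its log2 ratio of 9.31 was the second highest among the 15298 rows. The 7-library mean stood on 10 reads. In order of falling size factor, the 7 libraries held 6, 2, 0, 0, 0, 2 and 0 reads, which are normalized counts of 3.47, 1.31, 0, 0, 0, 1.81 and 0. IL6 was thus seen in 3 of the 7 libraries and at no more than a few reads. The 95% Poisson interval of those 10 reads alone allows a fold of 345 to 1325. Such intervals cover counting error only and treat each read as independent. The reads were paired-end, and the sources do not say whether both mates of a fragment were counted. Where they were, the intervals are too narrow. Without the library of size factor 1.73, which held 6 of the reads, the log2 ratio was 10.17, and without any other of the 7 it lay between 9.09 and 9.55. With 1 added to both means it was 8.27. How IL6 was spread over the 4 libraries is not known, because 376 different combinations of whole reads gave its 4-library mean.

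IL1A and IL1B encode the interleukin 1 cytokines, which signal through 1 shared receptor; the first is active as made and released by damaged cells, and the second is cut to its active form by caspase 1. IL1A (XM_004388863.1) averaged 3116 normalized counts in the 4 libraries against 17.4 in the 7, a 179-fold difference. IL1B (NM_001279256.1) had means of 19298 and 880, a 21.9-fold difference. The log2 ratios of 7.48 and 4.45 ranked at places 28 and 405 among all rows. Both genes were read in the 7-library group at levels where single reads do not decide the mean, and adding 1 to both means left their log2 ratios at 7.40 and 4.45. Their means were too high for the reads of single libraries to be recovered, so no spread is known for them.

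CXCL8 encodes interleukin 8, the chemokine that attracts neutrophils through CXCR1 and CXCR2. Its record (XM_004383314.1) averaged 42281 normalized counts in the 4 libraries against 3670 in the 7, a log2 ratio of 3.53. TNF encodes tumor necrosis factor, made as a membrane protein and released by the sheddase ADAM17. Its record (NM_001279259.1) had means of 102 and 39.6, a log2 ratio of 1.37, which ranked at place 2763 among all rows. Single libraries of the smaller group could be separated for TNF. Listed by falling size factor (1.56, 1.027, 0.620 and 0.372), they held 143, 80, 69 and 48 reads, or 91.7, 77.9, 111 and 129 normalized counts (102 ± 22.4, SD, n = 4). The 4 libraries differed by at most 1.66-fold, and the lowest of them, 77.9, lay above the 7-library mean of 39.6. Omitting any 1 of these 4 kept the log2 ratio between 1.24 and 1.48. The single values of the 7 libraries are not known for TNF.

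OSM encodes oncostatin M, a cytokine of the interleukin 6 family that activated myeloid cells release. Its record (XM_004379095.1) averaged 392 normalized counts in the 4 libraries against 38.7 in the 7, a 10.1-fold difference. As for IL6, several combinations of reads, 81 in number, gave the 4-library mean, and the libraries could not be separated.

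IL10 encodes interleukin 10, which restrains the production of the other cytokines by myeloid cells. Its record (XM_004375202.1) was low enough for all 11 libraries to be separated. The 4 libraries held 91, 42, 31 and 8 reads in order of falling size factor, which are normalized counts of 58.4, 40.9, 49.97 and 21.5 (42.7 ± 15.8, SD, n = 4). The 7 libraries held 11, 8, 0, 2, 2, 2 and 0 reads, or 6.36, 5.23, 0, 1.71, 1.81, 1.81 and 0 normalized counts (2.42 ± 2.46, SD, n = 7). The groups did not overlap, since the lowest of the 4 was 3.39 times the highest of the 7. The fold between the means was 17.7, and the 25 reads of the 7 libraries allow 11.97 to 27.3 (95% Poisson interval). Leaving out any of the 11 libraries moved the log2 ratio of 4.14 to between 3.92 and 4.60.

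IL23A encodes the p19 subunit of interleukin 23, which joins the p40 subunit encoded by IL12B and sustains T cells that make interleukin 17. Its record (XM_004379920.1) had 5, 9, 57 and 14 reads in the 4 libraries, in order of falling size factor, or 3.21, 8.76, 91.9 and 37.7 normalized counts (35.4 ± 40.6, SD, n = 4). The 7 libraries held 3, 2, 0, 0, 3, 0 and 7 reads, or 1.73, 1.31, 0, 0, 2.71, 0 and 9.97 normalized counts (2.25 ± 3.56, SD, n = 7). The groups overlapped for this gene. The libraries of size factor 0.620 and 0.372 lay above all 7, and the other 2 lay below the highest of the 7, the library of size factor 0.702. The 15.8-fold difference of the means (log2 ratio 3.98) rested in large part on the library of size factor 0.620, which held 64.9% of the summed normalized counts of the 4 libraries. Without it the log2 ratio was 2.88. Without the library of size factor 0.702, which held 7 of the 15 reads of its group, the log2 ratio was 5.21. Reads of every library were recovered for only 2 of the cytokine genes, IL10 and IL23A, and in 1 of these the groups did not overlap in this direction. Over the 4447 rows of the table with such reads, all of them weakly expressed in the 7-library group, the share was 2.81%. Since IL10 and IL23A were chosen by this contrast, that share is no matched background for them.

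**Figure D2:**
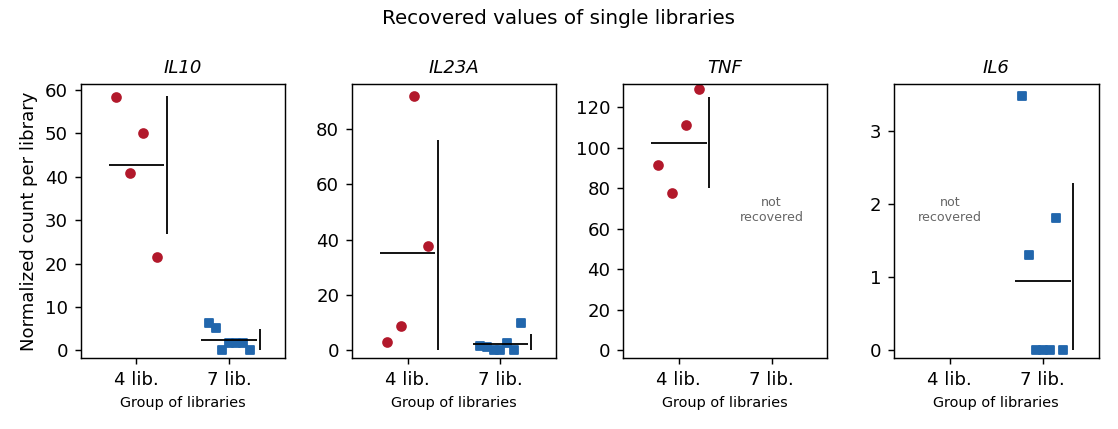
Normalized counts of single libraries for the 4 cytokine genes with recovered reads, in the 4-library group (circles) and the 7-library group (squares); horizontal lines are means, vertical lines the mean ± 1 SD, drawn no lower than 0. The 4 libraries of IL10 (21.5 to 58.4) lay above all 7, while those of IL23A ran from 3.21 to 91.9 and overlapped with them.

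**Figure D3:**
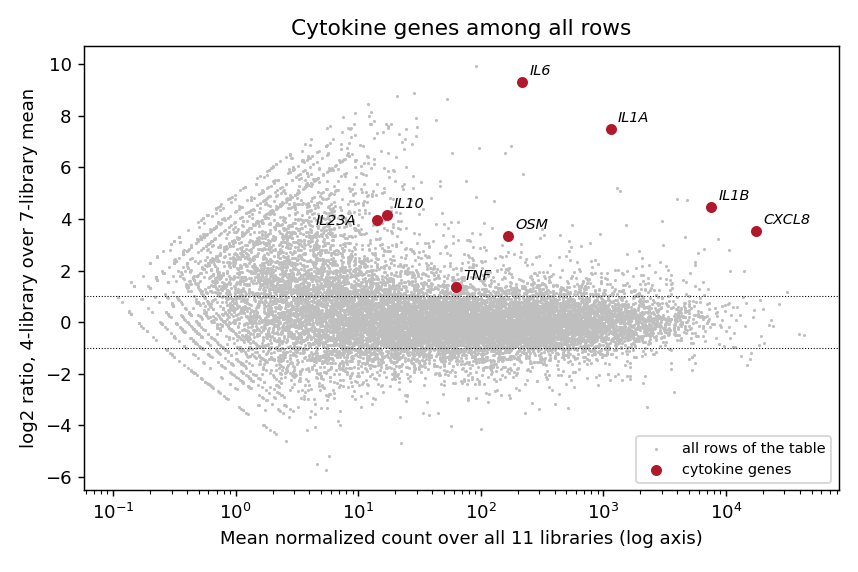
Ratios of the group means (log2, 4-library over 7-library) against the mean normalized count over 11 libraries (log axis) for all 15298 rows (grey) and the 8 cytokine genes (red); dotted lines mark a 2-fold difference. Rows with low counts spread widely, and all 8 cytokine genes lay above the upper line, IL6 at 9.31 and TNF at 1.37.

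The receptors through which these cytokines act were divided in direction. Of 15 receptor genes listed, 7 had a record, of which 2 were at least 2-fold higher in the 4-library mean, 2 at least 2-fold lower and 3 in between. For this and the following lists, the shares of all rows were 23.9% higher and 10.4% lower, and at an overall mean of at least 10 they were 12.3% and 9.59%. The receptors of CXCL8 were lower in the 4-library mean. CXCR1 had means of 44.0 over the 4 libraries and 383 over the 7 libraries, 8.71-fold lower in the former, and CXCR2 had means of 65.4 and 598, or 9.15-fold lower. In both genes the library of size factor 0.620 held the most, with normalized counts of 122 for CXCR1 and 168 for CXCR2. Without it the log2 ratios of -3.12 and -3.19 became -4.43 and -4.26. CXCR1 and CXCR2 are closely related genes, and the study kept uniquely mapped reads, so reads may be lost or divided between them. IL6ST, the gp130 chain shared by the receptors for interleukin 6, oncostatin M and LIF, had means of 683 and 638, a log2 ratio of 0.10.

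The chains of the interleukin 10 receptor differed in direction. IL10RA, the ligand-binding chain, had a 4-library mean of 410 and a 7-library mean of 176, 2.32-fold higher in the former. IL10RB, the second chain, had means of 142 and 223, a log2 ratio of -0.65. IL23R, which binds interleukin 23, had means of 93.3 and 55.3, a log2 ratio of 0.75. OSMR, which pairs with gp130 to bind oncostatin M, had means of 14.1 and 3.65 (log2 ratio 1.95). Its 4 libraries held 2, 2, 8 and 15 reads in order of falling size factor, and without the last of them, of size factor 0.372, the log2 ratio was 0.56 and no longer at 2-fold. The groups overlapped for OSMR, with 4-library values of 1.28 to 40.4 and 7-library values of 0 to 10.4.

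Of 5 antagonists and decoy receptors listed, 2 had a record. IL18BP, which neutralizes interleukin 18, had a 4-library mean of 12.6 and a 7-library mean of 16.7. IL1RL1, the receptor of interleukin 33, had means of 398 and 520. No record was matched to IL1RN, the natural antagonist of interleukin 1. ADAM17 had means of 62.9 and 113, a log2 ratio of -0.84. CASP8, a caspase that can also cut interleukin 1 beta, had a log2 ratio of -1.23 in its more abundant record, on 17 reads in the 4 libraries, and was named after its value was seen. IL18, a cytokine of the interleukin 1 family that is stored as a precursor, had means of 333 and 779, a log2 ratio of -1.23. Among JAK-STAT and SOCS genes, 1 of 9 rows was at least 2-fold higher in the 4-library mean and none was 2-fold lower. The exception, SOCS1, was named after its value was seen and had a log2 ratio of 1.07. Its 4 libraries stood at 7.70, 1.95, 3.22 and 45.7 in order of falling size factor, against a 7-library mean of 6.96. The 4-library mean of SOCS1 was thus higher only through the library of size factor 0.372. SOCS3, an inhibitor that interleukin 6 induces, had means of 78.3 and 44.2, a log2 ratio of 0.82, and STAT3, the factor that carries the interleukin 6 signal to the nucleus, had means of 29.5 and 37.8 for the more abundant of its 2 records.

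Of 8 genes for NF-kB subunits and inhibitors, 5 were at least 2-fold higher and none was 2-fold lower, with a median log2 ratio of 1.16. TNFAIP3, whose product A20 limits NF-kB signalling, had means of 7412 and 486, a log2 ratio of 3.93. NFKBIA, the gene of the inhibitor I-kappa-B alpha, had means of 14717 and 2059 (log2 ratio 2.84), and NFKBIZ, a nuclear cofactor needed for IL6 transcription, had means of 272 and 48.0 (log2 ratio 2.50). NFKBIE and NFKBIB were at 1.27 and 1.05. The subunit gene NFKB1 was at 0.51. NFKBIB and NFKB1 were named after their values were seen. Relative to the median of all rows, NFKBIB, SOCS1 and TRAF6 were no longer at 2-fold.

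Of 9 AP-1 genes with a record, 7 were at least 2-fold higher, against 23.9% of all rows, among them JUN at a log2 ratio of 3.41, ATF3 at 3.47 and FOSB at 2.59. BATF, which limits AP-1 activity, was lower, at -2.94. The ATF3 values ran from 21.4 to 96.8 in the 4 libraries and from 0 to 11.1 in the 7, without overlap. Of rows with reads of every library, 2.81% showed the same. ATF3 was named for a large ratio at an overall mean of at least 10, reached only through the 4-library group. That share is therefore no matched background for it. Without the library of size factor 0.372, which held 53.7% of the summed normalized counts of ATF3, its log2 ratio was 2.77. Of 5 genes for mRNA decay factors, 2 were at least 2-fold higher, namely ZC3H12A, whose product Regnase-1 cleaves IL6 mRNA, at 1.94, and ZFP36, whose product tristetraprolin destabilizes TNF mRNA, at 1.26. In the list of IL-1 and TNF signalling proteins, 1 of 12 genes (TRAF6, 1.08) was at least 2-fold higher and 3 were lower, MYD88 at -1.28, TAB1 at -1.33 and IKBKB at -3.28, the last on 8 reads in the 4 libraries and at -4.19 without the library of size factor 1.027.

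Other cytokines were divided. Of 9 chemokine genes with a record, 3 were at least 2-fold higher in the 4-library mean and 1 was lower, namely CXCL10 (named after its value was seen). CCL20, which attracts T helper 17 cells and dendritic cells, had a 4-library mean of 61.7 and a 7-library mean of 0.489, the latter on 3 reads. Around this 126-fold difference, the 95% Poisson interval of the 3 reads alone allows a fold of 43.1 to 611. In the 4 libraries, in order of falling size factor, CCL20 stood at 10.3, 36.0, 195 and 5.38. Each lay above the highest of the 7 libraries at 2.85, as in 2.81% of rows with reads of every library. CCL20 was named for a large ratio at an overall mean of at least 10, reached only through the 4-library group. For CCL20 that share is therefore no matched background. The lowest of the 4 and the highest of the 7 rested on 2 reads each. Without the library of size factor 0.620 the log2 ratio of CCL20 was 5.14 in place of 6.98. CXCL6, a ligand of CXCR1 and CXCR2 that was named after its values were seen, stood at 49.4, 17.5, 9.67 and 0 in the 4 libraries, and at no more than 3.41 in the 7.

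Of 25 further cytokine genes, 12 were at least 2-fold higher and 8 at least 2-fold lower in the 4-library mean, many of them on few reads. The shares of all rows were 23.9% and 10.4%. Interferon gamma (IFNG), a product of T and NK cells, had a 4-library mean of 62.9 and a 7-library mean of 1.53. Its 4 libraries stood at 24.4, 13.6, 14.5 and 199 in order of falling size factor, above all 7 (0 to 4.62). The same lack of overlap was found in 2.81% of rows with reads of every library. IFNG too was named for a large ratio at an overall mean of at least 10, reached only through the 4-library group. The share is no matched background for it either. Without the library of size factor 0.372 the log2 ratio of IFNG was 3.52 in place of 5.36. CSF1, the growth factor of monocytes, stood at 92.4, 12.7, 29.0 and 8.07 against 0 to 14.2 in the 7 libraries. Its log2 ratio of 2.81 was 1.71 without the library of size factor 1.56. INHBA, which encodes activin A, had means of 102 and 3.65, a log2 ratio of 4.80. LTB, a lymphotoxin subunit of lymphocytes, was lower in the 4-library mean, with means of 84.6 and 407, a log2 ratio of -2.27. Of 7 partner subunits and related cytokines, 3 were at least 2-fold higher, among them CNTF at 1.49, and IL18 was lower. CLCF1 was at 0.30, and at -0.46 without the library of size factor 0.372.

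**Figure D4:**
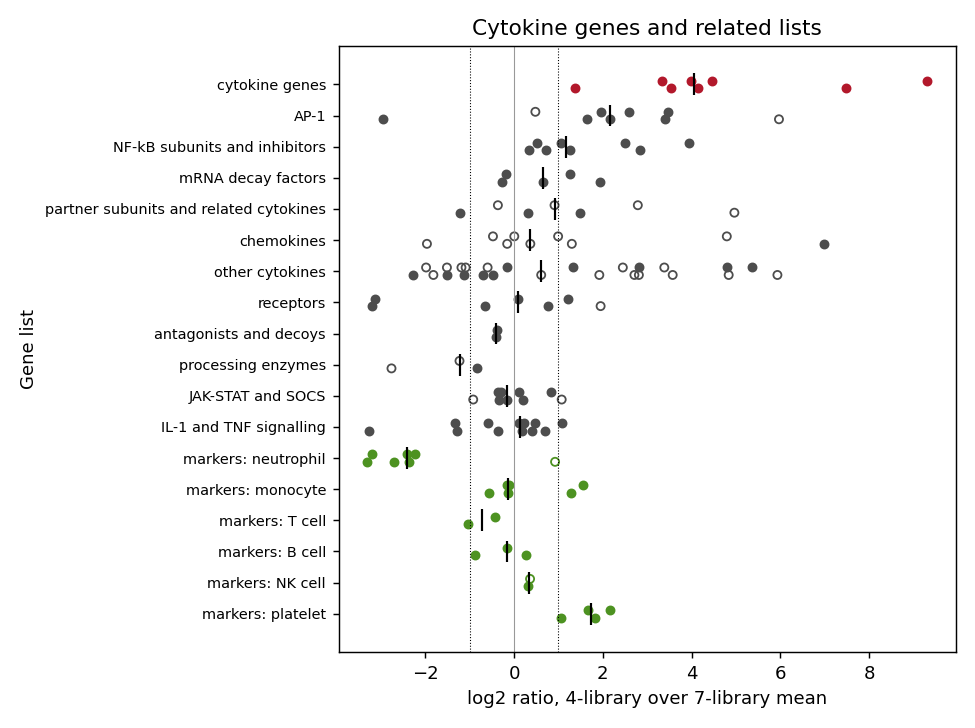
Ratios of the group means (log2, 4-library over 7-library) for the cytokine genes (red), genes of connected pathways (grey) and cell markers (green), 1 point per row; open points have an overall mean under 10, black ticks are medians and dotted lines mark a 2-fold difference. The cytokine genes had a median of 4.06, AP-1 genes 2.17, NF-kB genes 1.16 and receptors 0.10.

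The 4 libraries did not hold the cytokines in equal proportion. TNF was nearly even, the 4 shares of its summed normalized counts lying between 19.0% and 31.5%, and those of IL10 lay between 12.6% and 34.2%. IL23A had its largest share, 64.9%, in the library of size factor 0.620, as did CCL20 with 79.1%. OSMR and IFNG had theirs in the library of size factor 0.372, with 71.5% and 79.1%, and CSF1 and CXCL6 in that of size factor 1.56, with 65.0% and 64.5%. No single library thus carried the higher 4-library means of all these genes. Which animal a library came from is not known. Compared with the median shares of TNF, IL10 and IL23A over the 4 libraries, the nearest of 2805 other rows with at least 50 reads were BTBD6, GPR89A, PLA1A, SPRYD3 and ATP5F1D. Their summed absolute differences in share were 0.024 to 0.039. Of these, BTBD6 had a log2 ratio of 1.12 and the other 4 were between -0.89 and 0.23.

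**Figure D5:**
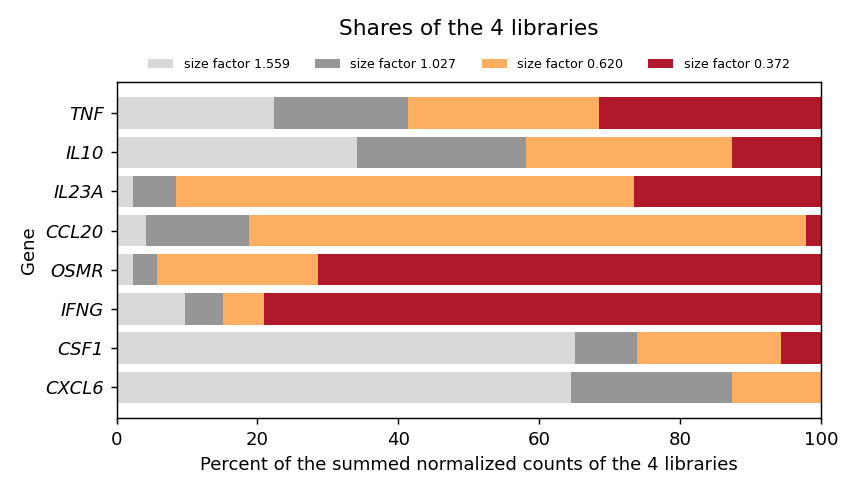
Share of each of the 4 libraries, named by size factor, in the summed normalized counts of 8 cytokine and receptor genes. TNF and IL10 were spread over all 4 libraries, whereas the library of size factor 0.620 held 64.9% of IL23A and 79.1% of CCL20, and that of 0.372 held 79.1% of IFNG.

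Markers of several blood cell types also differed between the means, and their part in the differences was not tested. Of 7 neutrophil marker rows, 6 were at least 4-fold lower in the 4-library mean, against 2.27% of all rows and 1.41% of those with an overall mean of at least 10, S100A9 by 6.50-fold and S100A8 by 5.14-fold, and MPO, named after its value was seen, was at a log2 ratio of 0.92. Their summed means were 2006 over the 4 libraries and 11870 over the 7. CXCR2, already given above as a receptor of CXCL8, is among the 6 lower neutrophil rows. Monocyte markers had summed means of 2488 and 2820, with CSF1R at a log2 ratio of -0.14 and LYZ at -0.57, and 2 of 6 rows were at least 2-fold higher. All 4 platelet marker rows were at least 2-fold higher, TUBB1 by 4.49-fold, with summed means of 10483 and 3369. Relative to the median of all rows, ITGA2B, at a log2 ratio of 1.06, was no longer at 2-fold. Summed means of T cell markers were 166 and 325, those of B cell markers 770 and 771, and those of NK cell markers 29.6 and 23.6. Lymphocyte markers were within 2-fold except CD4 at -1.04, with LCK at -0.42, MS4A1 at -0.17, BLK at 0.27, NCAM1 at 0.31 and PRF1 at 0.36. Single libraries set the direction of both NK cell markers, since NCAM1 was at -0.82 without the library of size factor 0.620 and PRF1 at -0.47 without that of 1.56. Erythroid markers had summed means of 182 and 486, with ALAS2 at -1.48 and SLC4A1 at -0.41, the latter at -1.35 without the library of size factor 0.620. Markers of other tissues differed in direction, with KDR at 0.62, PDGFRB at 3.36 on 7 and 2 reads, KRT19 at -0.99 and CDH1 at 1.05, and summed means of 452 and 292 for endothelial and stromal genes and of 23.2 and 28.6 for epithelial genes. Without the library of size factor 0.620, PDGFRB was at 0.33 and CDH1 at 0.77, and CDH1 was at 0.84 without that of 0.372. No marker with a record was at 0 in either group, but neither was any other row, so this tells nothing about the markers.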

How the data were processed

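White cell RNA of 4 Red tide and 7 Control animals was sequenced. The authors trimmed reads with Cutadapt, mapped them to TriManLat1.0 with Bowtie2, removed duplicates and kept reads that mapped uniquely. For the annotation release and the counting program, the sources used here give no name. As the authors used DESeq, the deposited signal of a row is its counts divided by size factors, averaged over a group. Columns with the study's own fold changes and p-values were left aside, and 0 columns of single samples were unused.

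Group sizes follow from the weights of both means in the overall mean (largest relative deviation 3.3e-09). RefSeq symbols, matched without record version, were found for 10080 of 15298 rows (65.9%), so a gene without a matched row may still be present. Within a group, 1 read of a library always adds the same amount to a mean. These amounts came from the lowest means, refined by least squares. Reads were kept where exactly 1 combination gave the deposited mean within its last digit. This succeeded in 10333 of 10565 rows (4-library mean no higher than 120) and 4461 of 4505 rows (7-library mean no higher than 6), and was tested on simulated data. Size factors were 0.372 to 1.56 and 0.702 to 1.73. Library totals cannot be had from means.

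No test was made. The cytokine genes and lists were chosen with earlier results of these data known. Named were all cytokine genes, receptors and antagonists with a row, up to 4 genes per further list (largest absolute log2 ratio at an overall mean of at least 10), the 2 most abundant markers per cell type and 5 genes for likeness; other names were added after their values were seen. Alternatives were a pseudocount of 1, centring, a minimum mean of 10, version-matched records and leaving out libraries, the last extended to list genes after the data were seen. Python 3.11.15, numpy 2.4.6, pandas 2.3.3 and scipy 1.17.1 were used.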

Additional observations from a re-analysis of the deposited data

Results flagged for a closer look

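A single library stood apart from the others of its group, by the ratio of its gap to the whole range, in 8 of 45 groups of 4 or 7 libraries examined. The limits used mark by chance about 1 in 20 groups of normally distributed values, a rate that does not apply to groups with few reads and many libraries at 0, as several here were. Among the cytokine genes this concerned IL23A, whose highest of the 7 libraries, at 9.97 normalized counts, had a ratio of 0.728. CCL20 was marked in both groups, at 195 normalized counts in the 4 libraries (ratio 0.838) and at 2.85 in the 7 (ratio 0.797, on 2 reads). IFNG was marked in the 4 libraries, at 199 normalized counts (ratio 0.942), and CXCL6 in the 7, at 3.41 (ratio 0.583, on 4 reads). Of the cell markers, NCAM1 at 59.6 in the 4 libraries had a ratio of 0.891. PDGFRB was marked at 9.67 in the 4 libraries (ratio 0.899) and at 1.81 in the 7 (ratio 1, on 2 reads).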

How the results depend on the processing

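The count of 8 cytokine genes at least 2-fold higher in the 4-library mean was 8 with a pseudocount of 1, with ratios centred on the median of all rows and with a minimum mean of 10. The minimum mean removed none of the genes, and IL6, IL10 and IL23A passed it only through the 4-library group. That setting is thus no check on weak expression. The count was 7 at 4-fold, and the median log2 ratio of 4.06 lay between 3.60 and 4.06 under these settings. With records matched by version number 2 of the genes were left, IL1B and TNF, and the median was 2.91. Of 96 rows in the pathway lists, 36 were at least 2-fold higher and 18 at least 2-fold lower in the 4-library mean. These became 22 and 6 at 4-fold, 21 and 10 among the 62 rows with a mean of at least 10, and 33 and 19 after centring. Of all rows, 23.9% were at least 2-fold higher and 10.4% at least 2-fold lower. With a mean of at least 10 these shares were 12.3% and 9.59%. Among the pathway rows, CCL20, IFNG, INHBA, CSF1, ATF3 and FOSB reached that mean only through the 4-library group. IKBKB reached it only through the 7-library group. For such rows the shares at that mean are no matched background. At 4-fold, 1839 of the 15298 rows were higher and 2.27% were lower. Adding 1 to both means cannot reverse a direction, and centring by 0.14 could not at log2 ratios of 1.37 or more. The other settings for all cytokine genes only removed genes or changed the threshold. Leaving out 1 of the 4 libraries, possible for TNF, IL10 and IL23A, could reverse a direction and reversed none. No paired analysis was possible because the table holds no column of a single sample. The 7-library mean of IL6 rests on 10 reads, and no spread over libraries is known for IL1A, IL1B, CXCL8 and OSM.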

Other observations

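IL20 and IL24, which encode cytokines of the interleukin 10 family, were read in the 4-library group in the same pair of libraries. They were named after their values were seen. IL20 had 0, 0, 5 and 3 reads and IL24 had 0, 0, 6 and 4 reads, in order of falling size factor. The 7 libraries held 1 read of IL20 and 8 reads of IL24. IL23A also had its highest normalized counts, 91.9 and 37.7, in these libraries of size factor 0.620 and 0.372. At so few reads the absence of IL20 and IL24 from the deeper libraries is a count and no measured difference between animals.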
